A study of Mus musculus with 11 samples.

Results

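The inhibitory receptor genes Pdcd1, Tigit, Lag3, Havcr2, Ctla4, Cd160, Btla, Cd5 and Cd96, were read in mouse CD8 T cells from the spleen. They were chosen by name, with earlier results of these data known. All 9 were found, once each, among the 52636 genes of the count table. The study sorted NP396+ memory CD8 T cells with high CD45RB (CD45RBhi, 4 libraries) and with low CD45RB (CD45RBlo, 4 libraries), and naive CD8 T cells with low CD44 (3 libraries), all from C57BL/6 mice. For the memory cells the labels give intraperitoneal infection with 200000 pfu of LCMV Armstrong, a strain that causes an acute infection, and sorting at days 42 to 45, week 6. The NP396 tetramer binds T cells that recognize 1 peptide of the viral nucleoprotein. The naive labels repeat the infection text and carry a time entry of 6 to 8 weeks whose meaning is not stated, so whether these mice were infected or differed in age is not known here. No label says that replicates are different animals. The p-values therefore rest on the spread among these libraries, part of which may be technical.

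Inhibitory receptors lower the response of a T cell when they meet their ligands on neighbouring cells. Many carry tyrosine motifs in the cytoplasmic tail that bind phosphatases such as SHP-2, encoded by Ptpn11, and so counter signalling from the T cell receptor and from CD28. Several are induced by antigen and stay high on exhausted cells in chronic infection. After an acute infection, memory cells are known to keep lower levels of some of them. Others, such as CD5 and CD96, are also present on resting T cells.

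Library totals were 18024793 to 23151297 counts, and levels are given in CPM, counts relative to the scaled library total. A count of 0 allows up to 3 counts, which stood for 0.13 to 0.17 CPM in these libraries. The sorted type was checked against its markers. The summed level of 5 CD8 T cell genes (Cd3e, Cd3d, Cd8a, Cd8b1 and Trac) was 6600 to 7510 CPM in CD45RBhi, 6040 to 7290 CPM in CD45RBlo and 6270 to 6650 CPM in naive libraries. Cd4 had at most 9 counts in any library. Of the marker lists of other cells, 3 were higher in naive libraries and 3 in memory libraries. The 7 B cell markers summed to 9.05 to 32.7 CPM in CD45RBhi, 7.9 to 13.5 CPM in CD45RBlo and 117 to 137 CPM in naive libraries. The sums of 6 myeloid markers were 2.82 to 10.2, 7.41 to 15.8 and 25 to 44.9 CPM in the same order of groups. For 5 erythroid and platelet markers they were 0.26 to 1.15, 0.194 to 15.6 and 168 to 371 CPM. The 5 NK cell markers summed to 122 to 251, 133 to 236 and 3.58 to 5.48 CPM in the same order, and most of the memory sum was Klrb1c. The 4 dendritic cell markers summed to 85.9 to 246, 65.4 to 167 and 1.69 to 2.76 CPM, most of it in memory libraries Itgax, while Siglech had 0 counts in every memory library and Flt3 at most 2. The 5 markers of CD4 and regulatory T cells summed to 19.3 to 35, 22.4 to 33.3 and 4.29 to 5.17 CPM.

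Against naive cells, 6 of the 9 receptors rose in both memory populations, 1 fell in both, and 2 did not pass the test in either. Tigit, Havcr2, Pdcd1 and Lag3 were 19.5-fold to 69.6-fold higher in CD45RBhi and 37.3-fold to 82.7-fold higher in CD45RBlo than in naive cells. Ctla4 and Cd160 were 4.53-fold and 2.80-fold higher in CD45RBhi and 4.32-fold and 2.92-fold higher in CD45RBlo. Btla fell, and Cd5 and Cd96 did not pass. The test was edgeR's quasi-likelihood F test over 13735 genes in all 11 libraries, with Benjamini-Hochberg adjustment over all genes and a threshold of 0.05. Of all genes tested, 41.5% passed between CD45RBhi and naive cells, 22.3% higher and 19.1% lower. Between CD45RBlo and naive cells 42.2% passed, 22.4% higher and 19.8% lower. These splits moved with the scaling: by library size alone 2301 genes were higher and 3724 lower in CD45RBhi, against 3064 and 2630 with TMM, and the median log2 fold change of all genes was -0.155. In CD45RBlo 2356 were higher and 3609 lower, against 3072 and 2722, with a median of -0.143. The same receptors passed in the same directions under both. The median log2 fold change of the 9 receptors was 2.18 in CD45RBhi and 2.11 in CD45RBlo, beside -0.01 over all genes tested in each comparison. The groups did not overlap for 7 receptors in CD45RBhi, where 47.4% of all genes did not overlap (24.1% above and 23.3% below naive). In CD45RBlo they did not overlap for 8 receptors, Cd5 included, where 49.6% of all genes did not (25.2% above and 24.3% below). Both comparisons use the same 3 naive libraries. In bulk samples, fewer cells of a kind and less RNA per cell cannot be told apart.

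**Figure D1:**
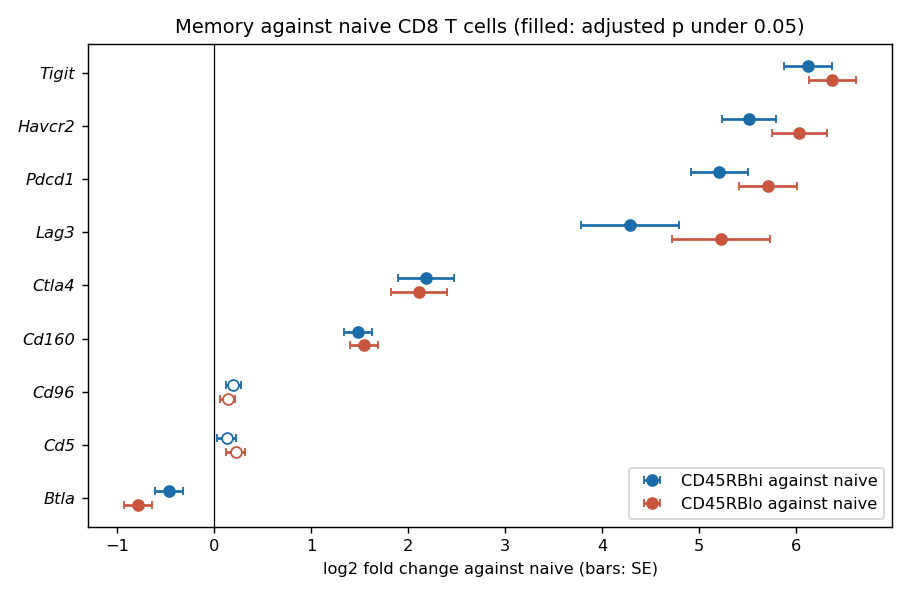
Log2 fold change of each receptor gene in CD45RBhi (blue) and CD45RBlo (red) memory cells against naive cells, with SE; filled points passed at an adjusted p under 0.05. Tigit, Havcr2, Pdcd1 and Lag3 lie between 4.29 and 6.37, Ctla4 and Cd160 between 1.49 and 2.18, Cd5 and Cd96 near 0, and Btla below 0.

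The sequences before the transcription start are shown for the 3 genes that rose most in CD45RBhi and for Btla, the one that fell. They are the 250 bases upstream of the RefSeq start on GRCm38.p6, and 8 of the 9 genes had an entry; Lag3 did not. Capitals mark matches on either strand to GGAAAA (the core bound by NFAT factors), TGANTCA (AP-1) or TGTGGT (RUNX).
Tigit (chr16:43664185-43664434, - strand): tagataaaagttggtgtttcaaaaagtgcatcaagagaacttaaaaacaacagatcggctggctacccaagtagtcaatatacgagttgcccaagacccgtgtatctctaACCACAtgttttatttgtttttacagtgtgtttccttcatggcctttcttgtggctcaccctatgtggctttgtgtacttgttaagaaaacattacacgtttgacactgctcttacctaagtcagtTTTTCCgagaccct
Havcr2 (chr11:46454681-46454930, + strand): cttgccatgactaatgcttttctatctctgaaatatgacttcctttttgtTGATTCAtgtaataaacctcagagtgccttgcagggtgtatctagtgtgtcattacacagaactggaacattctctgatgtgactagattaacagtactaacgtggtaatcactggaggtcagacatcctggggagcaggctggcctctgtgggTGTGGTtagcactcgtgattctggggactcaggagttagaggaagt
Pdcd1 (chr1:94052554-94052803, - strand): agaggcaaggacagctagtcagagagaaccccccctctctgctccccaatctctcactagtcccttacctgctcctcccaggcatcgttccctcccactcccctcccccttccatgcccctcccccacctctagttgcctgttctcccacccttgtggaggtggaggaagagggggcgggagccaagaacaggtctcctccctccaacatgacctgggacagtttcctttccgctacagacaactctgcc
Btla (chr16:45224087-45224336, + strand): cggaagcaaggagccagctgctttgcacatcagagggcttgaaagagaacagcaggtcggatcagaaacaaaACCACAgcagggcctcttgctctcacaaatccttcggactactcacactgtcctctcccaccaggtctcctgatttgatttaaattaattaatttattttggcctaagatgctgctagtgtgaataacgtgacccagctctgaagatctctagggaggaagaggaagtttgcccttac

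Cd160 has 2 start sites in the RefSeq table, which gave 9 windows for 8 genes. The RUNX core was found in 6 of the 9 windows (Tigit, Havcr2, Btla, Cd96 and both of Cd160), against 14.0% of 32851 windows of the same length over all genes. It was present upstream of Btla, which fell, and of Cd96, which did not pass, as well as of genes that rose. The Ctla4 and Pdcd1 windows lacked it, although both genes rose. All motifs were chosen with earlier results of these data known. GGAAAA was found in 2 windows, those of Tigit and Ctla4 (20.4% of all windows), and the AP-1 letters in 1, that of Havcr2 (6.75%). A T-box core, GGTGTGA, and the TCF and LEF core, CTTTGA, were each found in 1 window of Cd160 (3.33% and 13.8% of all windows). The E-box letters CANNTG were found in 5 windows (66.2% of all windows), and in Tigit this match overlaps the RUNX match. The Pdcd1 window held none of these 6 motifs. Matches are letters in a window and do not show that a factor binds there.

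Tigit binds CD155, encoded by Pvr, and competes for it with the activating receptor CD226. It is on chromosome 16 (43648867 to 43664146, GRCm38, minus strand). It had 21.1, 21.4, 33.5 and 29.9 CPM in CD45RBhi replicates 1 to 4 and 31.4, 31.6, 32.3 and 30.6 CPM in CD45RBlo replicates 1 to 4. Naive replicates 1 to 3 had 0.365, 0.415 and 0.345 CPM, from 8, 8 and 7 counts. Every memory library was far above every naive library, with log2 fold changes of 6.12 ± 0.243 in CD45RBhi (SE, adjusted p = 8.87e-10) and 6.37 ± 0.244 in CD45RBlo (adjusted p = 6.15e-10). Cd226 changed less: it averaged 149 ± 16.9 CPM in CD45RBhi (SD, n = 4), 164 ± 33.9 CPM in CD45RBlo (n = 4) and 101 ± 8.59 CPM in naive libraries (n = 3). Counts of Tigit per 100 counts of Cd226 were therefore 13.4 to 20.9 in CD45RBhi and 15.6 to 26.7 in CD45RBlo, against 0.318 to 0.451 in naive libraries. Cd96 encodes another receptor of the same ligand.

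Havcr2 encodes TIM-3, an immunoglobulin-family receptor for galectin-9 and other ligands (chromosome 11, 46454935 to 46481255, plus strand). It had 18.4, 14.5, 26.8 and 24.8 CPM in CD45RBhi replicates 1 to 4 and 31.4, 28.6, 32.7 and 28.4 CPM in CD45RBlo replicates 1 to 4. Naive replicates had 0.32, 0.519 and 0.542 CPM, from 7 to 11 counts. The log2 fold changes against naive cells were 5.51 ± 0.283 in CD45RBhi (adjusted p = 9.81e-09) and 6.03 ± 0.285 in CD45RBlo (adjusted p = 4.16e-09). All 3 groups were apart, with CD45RBlo libraries above CD45RBhi libraries and both above naive ones. Myeloid cells also express Havcr2, and the myeloid markers Lyz2 and Adgre1 were lower in memory than in naive libraries: Lyz2 averaged 0.517 CPM in CD45RBhi, 1.04 CPM in CD45RBlo and 17.3 CPM in naive libraries. S100a8 had 0 counts in every CD45RBhi library and at most 1 in the others. Itgam, of the same list, went the other way, at 5.33 CPM in CD45RBhi, 6.58 CPM in CD45RBlo and 0.727 CPM in naive libraries (adjusted p = 0.000652 and 0.000299). Of the 4 myeloid markers tested, 1 rose and 3 fell in each memory group, and their part in the Havcr2 result was not tested.

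Pdcd1 encodes PD-1, the receptor for the ligands PD-L1 and PD-L2 and the target of checkpoint antibodies (chromosome 1, 94038305 to 94052553, minus strand). It had 72.4, 135, 130 and 118 CPM in CD45RBhi replicates 1 to 4 and 105, 191, 187 and 161 CPM in CD45RBlo replicates 1 to 4. Naive replicates had 2.56, 3.53 and 3.15 CPM. In both memory groups replicate 1 was the lowest library, and it was far above every naive library. The log2 fold changes against naive cells were 5.21 ± 0.298 in CD45RBhi (adjusted p = 2.68e-08) and 5.71 ± 0.303 in CD45RBlo (adjusted p = 1.18e-08).

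Lag3, a CD4-like receptor of MHC class II and other ligands, is on chromosome 6 (124904361 to 124911705, minus strand). It had 7.32, 3.78, 5.92 and 6.07 CPM in CD45RBhi replicates 1 to 4 and 11.2, 9.74, 10.5 and 12.6 CPM in CD45RBlo replicates 1 to 4. Naive replicates had 12, 0 and 6 counts, or 0.548, 0 and 0.295 CPM, and the 0 allows up to 0.156 CPM. The log2 fold changes against naive cells were 4.29 ± 0.501 in CD45RBhi (adjusted p = 2.07e-05) and 5.22 ± 0.504 in CD45RBlo (adjusted p = 3.2e-06). Their size depended on single naive libraries. Without naive replicate 1 the log2 fold change was 5.20 in CD45RBhi and 6.14 in CD45RBlo, and without naive replicate 2 it was 3.74 in CD45RBhi and 4.68 in CD45RBlo; every such fit passed.

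Ctla4, which competes with CD28 for CD80 and CD86, is on chromosome 1 (60887000 to 60915832, plus strand). It had 5.22, 4.95, 5.67 and 7.01 CPM in CD45RBhi replicates 1 to 4 and 4.42, 5.28, 4.97 and 7.05 CPM in CD45RBlo replicates 1 to 4. Naive replicates had 1.83, 0.83 and 1.08 CPM. The memory groups overlapped each other and lay above naive libraries (log2 fold change 2.18 ± 0.291 in CD45RBhi, adjusted p = 6.48e-05, and 2.11 ± 0.291 in CD45RBlo, adjusted p = 7.64e-05). Regulatory T cells express Ctla4 at high levels, and their factor Foxp3 had 0 counts in all CD45RBhi libraries and at most 1 in a CD45RBlo library, against 16 to 30 in naive libraries. Il2ra and Zbtb7b, of the same marker list, rose beside Ctla4. Il2ra averaged 18.6 CPM in CD45RBhi, 15.4 CPM in CD45RBlo and 0.706 CPM in naive libraries, and Zbtb7b averaged 7.86, 8.59 and 0.102 CPM in the same order. Of the 4 markers tested 2 rose and 1 fell in each memory group, and the part of such cells in the Ctla4 result was not tested. Cd28 also rose, to 490 ± 34.3 CPM in CD45RBhi and 429 ± 12.9 CPM in CD45RBlo (SD, n = 4 each), against 149 ± 6.27 CPM in naive libraries (n = 3). There were 1.03 to 1.49 counts of Ctla4 per 100 counts of Cd28 in CD45RBhi, 0.996 to 1.66 in CD45RBlo and 0.586 to 1.22 in naive libraries, and these ranges overlap. In the annotation, Ctla4 overlaps the pseudogene Rpl18-ps1 on the same strand, which had 7 to 17 counts per library.

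Cd160 and Btla both bind HVEM, which is encoded by Tnfrsf14 and also binds the ligand LIGHT, encoded by Tnfsf14. Cd160, a glycolipid-anchored receptor (chromosome 3, 96798763 to 96829351, minus strand), had 74.5, 103, 87.7 and 79.9 CPM in CD45RBhi replicates 1 to 4. It had 71.8, 105, 88.9 and 93.8 CPM in CD45RBlo replicates 1 to 4 and 33.0, 27.5 and 31.8 CPM in naive replicates 1 to 3. The memory groups overlapped and lay above the naive group, with log2 fold changes of 1.49 ± 0.145 in CD45RBhi (adjusted p = 3.99e-06) and 1.54 ± 0.146 in CD45RBlo (adjusted p = 2.63e-06). Pdzk1, on the opposite strand, overlaps the Cd160 gene and had at most 13 counts in a library, whereas Cd160 had at least 531. NK cells also express Cd160, and of 4 NK cell markers tested, 2 rose and 0 fell in each memory group. Klrb1c averaged 178 CPM in CD45RBhi, 173 CPM in CD45RBlo and 0.313 CPM in naive libraries, and Klra8 0.648, 1.42 and 0 CPM in the same order. Fcer1g, at 3.21, 1.73 and 2 CPM, and Tyrobp, at 2.3, 1.58 and 2.04 CPM, did not pass in either memory group. Ncr1, of the same list, had at most 2 counts in any library, and the part of NK cells in the Cd160 result was not tested.

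Btla (chromosome 16, 45224315 to 45257670, plus strand) moved the other way from Cd160. It had 32.4, 47.7, 46.8 and 43.1 CPM in CD45RBhi replicates 1 to 4 and 28.2, 40.2, 33.7 and 34.1 CPM in CD45RBlo replicates 1 to 4. Naive replicates had 60.5, 60.3 and 54.7 CPM, above every memory library. The log2 fold change was -0.46 ± 0.144 in CD45RBhi (adjusted p = 0.0213) and -0.78 ± 0.144 in CD45RBlo (adjusted p = 0.000774). In CD45RBhi the call was lost without naive replicate 1 (-0.43, adjusted p = 0.0706) or naive replicate 2 (-0.44, adjusted p = 0.0692). B cells also express Btla, and of 6 B cell markers tested 5 fell in CD45RBhi and 6 in CD45RBlo. Pax5 had 0 counts in every memory library and 3 to 5 in naive libraries. Cd79a averaged 0.699 CPM in CD45RBhi, 0.713 CPM in CD45RBlo and 5.3 CPM in naive libraries, and Cd79b averaged 6.68, 3.81 and 39.4 CPM in the same order. Their part in the Btla result was not tested. Tnfrsf14 fell to 3.56 ± 1.21 CPM in CD45RBhi and 3.53 ± 0.928 CPM in CD45RBlo (SD, n = 4 each), against 7.3 ± 0.833 CPM in naive libraries (n = 3; adjusted p = 0.0124 and 0.0116). Tnfsf14 rose to 38.0 ± 2.92 CPM in CD45RBhi and 37.3 ± 4.04 CPM in CD45RBlo, against 1.85 ± 0.335 CPM in naive libraries (adjusted p = 4.96e-10 and 4.43e-10).

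Cd5 and Cd96 were the most abundant of the 9 genes in naive cells and near the naive level in memory cells. Cd5, a scavenger-family receptor that tunes the T cell receptor signal (chromosome 19, 10717116 to 10739002, minus strand), had 258, 259, 282 and 323 CPM in CD45RBhi replicates 1 to 4. It had 299, 292, 267 and 338 CPM in CD45RBlo replicates 1 to 4 and 262, 264 and 243 CPM in naive replicates 1 to 3. Its log2 fold change was 0.13 ± 0.1 in CD45RBhi (adjusted p = 0.33) and 0.22 ± 0.1 in CD45RBlo (adjusted p = 0.0965). Cd96 (chromosome 16, 46035657 to 46120251, minus strand) had 415, 452, 460 and 403 CPM in CD45RBhi replicates 1 to 4. It had 406, 443, 416 and 393 CPM in CD45RBlo replicates 1 to 4 and 405, 349 and 376 CPM in naive replicates 1 to 3. Its values were 0.20 ± 0.0791 in CD45RBhi (adjusted p = 0.0612) and 0.14 ± 0.0791 in CD45RBlo (adjusted p = 0.185). Without naive replicate 1 Cd96 passed in CD45RBhi (0.26, adjusted p = 0.0455).

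**Figure D2:**
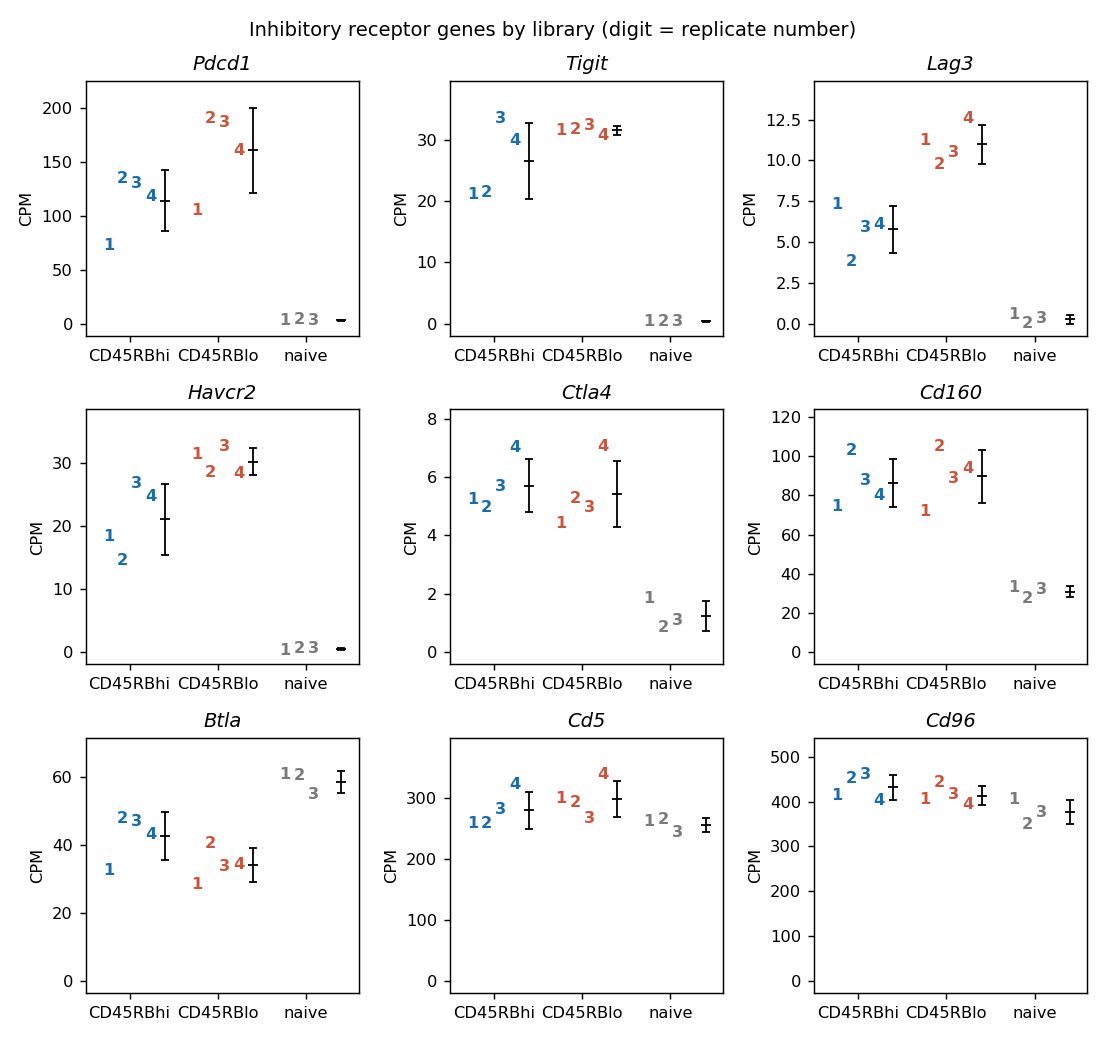
CPM of each receptor gene in every library; the digit is the replicate number, the colour the group, and the black bar the mean with SD (n = 4, 4 and 3). Memory libraries lie above naive ones for 6 genes and below for Btla, and CD45RBlo lies above CD45RBhi without overlap for Lag3 and Havcr2.

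Levels of different genes were compared per length, as RPKM (CPM divided by the length of the merged exons in kilobases, GENCODE M21). In CD45RBhi cells the order was Cd96 at 198 ± 12.7 RPKM, Pdcd1 at 58.8 ± 14.7, Cd5 at 56.9 ± 6.2, Cd160 at 32.6 ± 4.63, Tigit at 28.8 ± 6.76, Btla at 12.5 ± 2.06, Havcr2 at 7.76 ± 2.09, Lag3 at 2.73 ± 0.697 and Ctla4 at 2.45 ± 0.393 RPKM (SD, n = 4). Within it the SDs of Pdcd1 and Cd5, of Cd160 and Tigit, and of Lag3 and Ctla4 overlapped, so these neighbours are not ordered. CD45RBlo cells had Cd96 at 190 ± 9.64 RPKM, Pdcd1 at 83.3 ± 20.5, Cd5 at 60.6 ± 6.03, Tigit at 34.2 ± 0.746, Cd160 at 34 ± 5.16, Havcr2 at 11.1 ± 0.777, Btla at 10 ± 1.45, Lag3 at 5.22 ± 0.57 and Ctla4 at 2.33 ± 0.487 RPKM (n = 4). There the SDs of Pdcd1 and Cd5, of Tigit and Cd160, and of Havcr2 and Btla overlapped. In naive cells Cd96 at 172 ± 12.8 RPKM and Cd5 at 52.0 ± 2.4 RPKM were followed by Btla at 17.2 ± 0.968, Cd160 at 11.6 ± 1.09 and Pdcd1 at 1.59 ± 0.252 RPKM (n = 3). Ctla4 at 0.535 ± 0.223, Tigit at 0.408 ± 0.0391, Havcr2 at 0.169 ± 0.0448 and Lag3 at 0.133 ± 0.13 RPKM came last in naive cells. The SDs of Ctla4 and Tigit, and of Havcr2 and Lag3, overlapped.

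The make-up of this transcript pool differed between memory and naive cells. Pdcd1 held 10.6% to 16.8% of the summed RPKM of the 9 genes in CD45RBhi libraries and 13.9% to 22.1% in CD45RBlo libraries, against 0.487% to 0.747% in naive libraries. Tigit held 5.62% to 8.41% in CD45RBhi and 7.41% to 8.78% in CD45RBlo, against 0.146% to 0.185% in naive libraries. Cd96 held 46.0% to 53.8% and 41.8% to 47.8% in CD45RBhi and CD45RBlo libraries, against 65.4% to 68.2% in naive libraries. The sum itself was 353 to 433 RPKM in CD45RBhi, 389 to 464 in CD45RBlo and 244 to 272 in naive libraries.

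**Figure D3:**
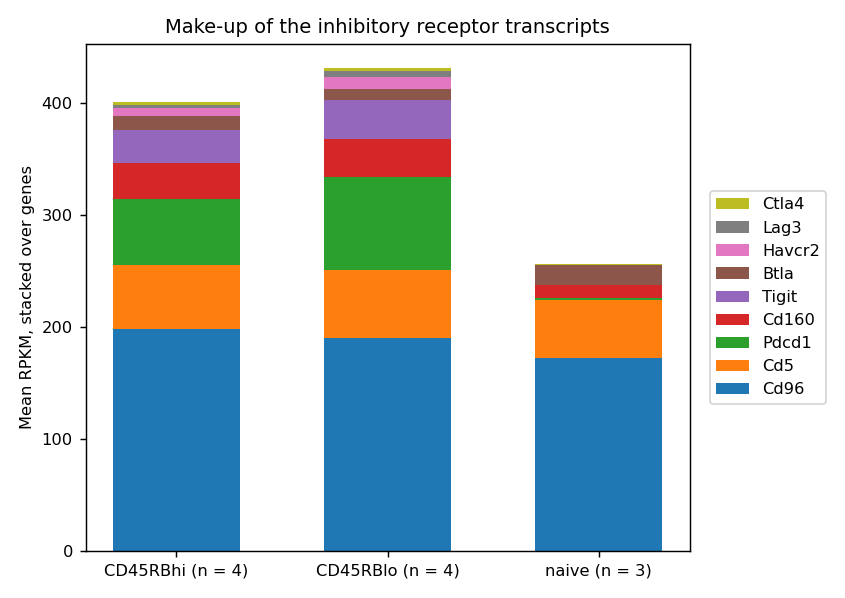
Mean RPKM of the 9 receptor genes stacked within each group (n = 4, 4 and 3 libraries). Cd96 is the largest part in every group, and Pdcd1, Tigit and Cd160 make up more of the memory bars than of the naive bar.

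The 2 memory populations share their antigen and time, and were set against each other for the same 9 genes. Lag3, Havcr2 and Pdcd1 had lower values in CD45RBhi than in CD45RBlo, and Btla had higher ones. With libraries taken in pairs, CD45RBhi cells had 1.94-fold less Lag3, 1.46-fold less Havcr2 and 1.42-fold less Pdcd1 than CD45RBlo cells, and 1.25-fold more Btla. The other 5 genes did not pass with or without pairs. By edgeR's quasi-likelihood test over all 11 libraries 0 of the 9 genes passed, where 0.124% of all genes passed. An unadjusted p under 0.05 was found for 4 of them (Pdcd1, Lag3, Havcr2 and Btla) and for 9% of all genes. DESeq2 called 1, Lag3 (adjusted p = 0.0199), and 1.17% of all genes. The groups did not overlap for 2 of the 9 genes and for 4.99% of all genes. Memory libraries with the same replicate number deviated together from their group means, with correlations of 0.425, 0.452, 0.208 and 0.191 for numbers 1 to 4. No label states this pairing, which was inferred from these same counts. A fit that takes them as 4 pairs (a replicate block over the 8 memory libraries) was read beside the unpaired test. With pairs, 4 of the 9 genes passed, 3 lower and 1 higher in CD45RBhi. Of the 12637 genes tested with pairs, 5.59% passed the same adjusted threshold, 3.08% lower and 2.52% higher. Before adjustment 5 of the 9 genes were under 0.05, the 4 that passed and Tigit. The share of all genes under 0.05 before adjustment was not counted for this fit. The 5 of 9 therefore cannot be set against a background, and no conclusion is drawn from it. The median log2 fold change of the 9 genes in this fit was -0.09, beside -0.005 over all genes.

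Lag3 showed the largest difference, 5.77 ± 1.47 CPM in CD45RBhi against 11 ± 1.2 CPM in CD45RBlo (SD, n = 4 each). Every CD45RBhi library was below every CD45RBlo library, a separation seen in this direction for 2.31% of all genes. The log2 ratio in pairs 1 to 4 was -0.62, -1.37, -0.83 and -1.05. The fit with pairs gave -0.96 ± 0.16 (SE, adjusted p = 0.00605, 0.427 without pairs), and the call held when any 1 pair was left out (adjusted p 0.0145 to 0.0389).

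Pdcd1 averaged 114 ± 28.4 CPM in CD45RBhi and 161 ± 39.6 CPM in CD45RBlo libraries, and the groups overlapped; replicate 1 was the lowest in both. Its log2 ratio was nearly the same in every pair, -0.53, -0.50, -0.52 and -0.45. The fit with pairs gave -0.50 ± 0.0565 (adjusted p = 0.000607, 0.499 without pairs), and the call held without any 1 pair (adjusted p 0.000676 to 0.00988).

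Havcr2 averaged 21.1 ± 5.69 CPM in CD45RBhi and 30.3 ± 2.12 CPM in CD45RBlo libraries, and the groups did not overlap. Its log2 ratio was -0.77 and -0.98 in pairs 1 and 2 but -0.29 and -0.19 in pairs 3 and 4. The fit with pairs gave -0.55 ± 0.128 (adjusted p = 0.0276, 0.382 without pairs). That call was lost without pair 1 (adjusted p = 0.117), pair 2 (0.0679) or pair 3 (0.0777). Tigit varied in the same way: its ratio was -0.57 and -0.56 in pairs 1 and 2 and 0.06 and -0.03 in pairs 3 and 4. In CD45RBhi libraries both genes were lower in replicates 1 and 2 than in replicates 3 and 4, whereas CD45RBlo libraries of Tigit spanned only 30.6 to 32.3 CPM. Tigit did not pass (-0.27 ± 0.118, adjusted p = 0.203 with pairs and 0.647 without).

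Btla was higher in CD45RBhi in 4 of 4 pairs, by 0.205, 0.25, 0.47 and 0.34 log2 units, at 42.5 ± 6.99 CPM in CD45RBhi and 34 ± 4.93 CPM in CD45RBlo libraries. The fit with pairs gave 0.32 ± 0.081 (adjusted p = 0.0399, 0.52 without pairs). The call was lost when any 1 pair was left out (adjusted p 0.0577 to 0.215). Over all genes, 14.6% were higher in CD45RBhi in 4 of 4 pairs, and 14.4% were lower in all. Of 4 B cell markers tested with pairs 1 was also higher in CD45RBhi, Cd79b (0.76, adjusted p = 0.037), whereas Cd79a averaged 0.699 CPM in CD45RBhi and 0.713 CPM in CD45RBlo, and the part of B cells in the Btla value was not tested.

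For the remaining genes with pairs, the log2 fold change was 0.08 ± 0.169 for Ctla4 (adjusted p = 0.828), -0.05 ± 0.0673 for Cd160 (0.691), -0.09 ± 0.059 for Cd5 (0.406) and 0.06 ± 0.0496 for Cd96 (0.511). Cd96 was higher in CD45RBhi in 4 of 4 pairs, by at most 0.15 log2 units. The ranges of Tigit per 100 counts of Cd226 and of Ctla4 per 100 counts of Cd28, given above, overlapped between the memory groups.

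**Figure D4:**
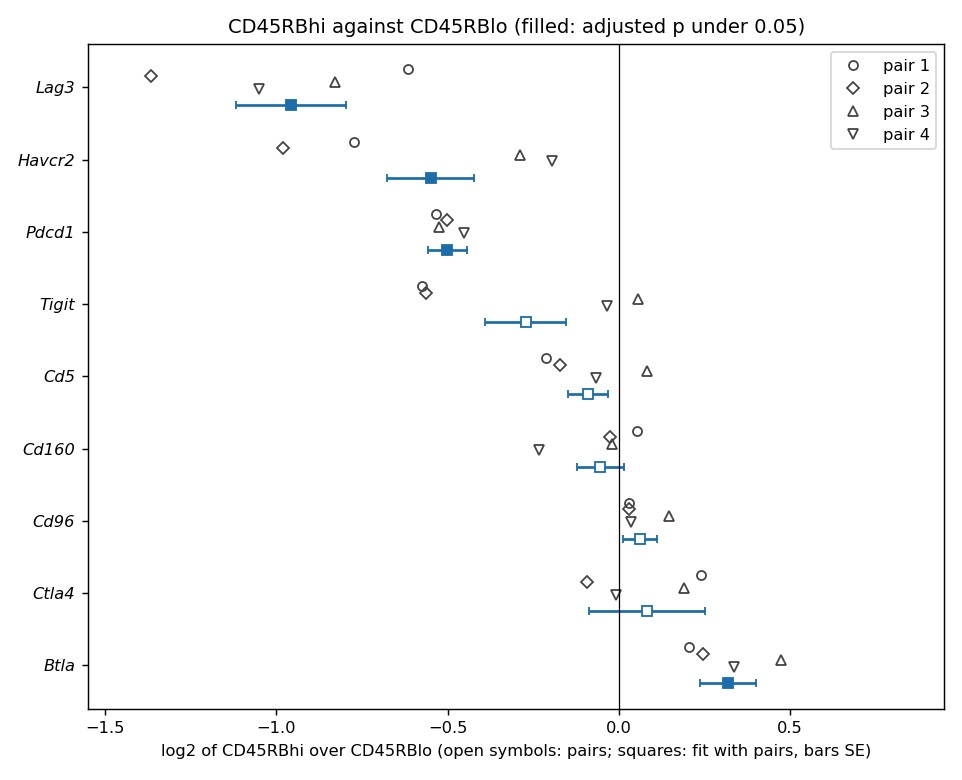
Log2 of CD45RBhi over CD45RBlo for each receptor gene in the 4 pairs of equal replicate number (open symbols) and from the fit with pairs (squares, SE; filled where adjusted p was under 0.05). The 4 pairs of Pdcd1 lie together near -0.50, those of Lag3 spread from -1.37 to -0.62, and those of Btla lie above 0.

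Other genes of these pathways were read from lists chosen with earlier results of these data known. The counts of each list stand beside the shares of all genes tested. Against naive cells 22.3% rose and 19.1% fell in CD45RBhi, and 22.4% rose and 19.8% fell in CD45RBlo. Between the memory groups with pairs 5.59% passed, 3.08% lower and 2.52% higher in CD45RBhi. Of 11 ligand genes tested, 3 rose and 2 fell in CD45RBhi against naive cells, and 4 rose and 3 fell in CD45RBlo. Cd80, a ligand of CTLA-4 and CD28, averaged 13.2 CPM in CD45RBhi, 13.7 CPM in CD45RBlo and 0.0653 CPM in naive libraries (log2 fold changes 7.54 and 7.59, adjusted p = 7.94e-10 and 6.49e-10). Dendritic cells also express it. Of their markers, Itgax averaged 166, 123 and 0.732 CPM and Xcr1 7.95, 9.78 and 1.12 CPM in the same order. Flt3 and Siglech, of the same list, were too low to be tested, with at most 14 and 7 counts in a library. They averaged 0.0217, 0 and 0.379 CPM and 0, 0 and 0.145 CPM. The part of such cells in the Cd80 value was not tested. Lgals3, encoding galectin-3, averaged 228 CPM in CD45RBhi, 268 CPM in CD45RBlo and 2.16 CPM in naive libraries (6.71 and 6.94). Pvr, the ligand of TIGIT and CD96, averaged 15.5, 18.4 and 7.75 CPM in the same order (1.00 and 1.25). In both memory groups Tnfrsf14 and Cd5l fell. Cd5l, a macrophage product named after its values were seen, averaged 0.0373 CPM in CD45RBhi, 0.134 CPM in CD45RBlo and 2.07 CPM in naive libraries. The macrophage marker Adgre1 averaged 0.0255, 0.228 and 3.74 CPM in the same order. Itgam, of the same myeloid list, went the other way, at 5.33, 6.58 and 0.727 CPM. Of the 4 myeloid markers tested, 1 rose and 3 fell in each memory group, and their part in the Cd5l value was not tested. Between the memory groups 1 of 10 ligand genes passed with pairs: Cd86 was lower in CD45RBhi (-0.44, adjusted p = 0.0304).

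Among 11 activating counterparts, 7 rose and 1 fell in CD45RBhi and 7 rose and 2 fell in CD45RBlo against naive cells, with Tnfsf14, Cd28 and Cd244 first by p. Of all genes tested, 41.5% passed in CD45RBhi and 42.2% in CD45RBlo. Cd244, the receptor 2B4, averaged 8.52 CPM in CD45RBhi, 11.4 CPM in CD45RBlo and 0.671 CPM in naive libraries. Cd244 is counted both in this list and among the other inhibitory receptors below. With pairs, 1 of 11 passed between the memory groups, Crtam, higher in CD45RBhi (0.24, adjusted p = 0.034), where 5.59% of all genes passed.

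Of 26 signalling partners, 13 rose and 4 fell in CD45RBhi and 11 rose and 4 fell in CD45RBlo against naive cells. The shares of all genes that passed were 41.5% in CD45RBhi and 42.2% in CD45RBlo. Ubash3b, a phosphatase that dampens receptor signals, averaged 172 CPM in CD45RBhi, 180 CPM in CD45RBlo and 55.6 CPM in naive libraries. The kinase gene Fyn averaged 1230, 1290 and 489 CPM in the same order. Ptpn11, whose product SHP-2 is recruited by PD-1, averaged 92.5 CPM in CD45RBhi, 117 CPM in CD45RBlo and 37.4 CPM in naive libraries. It was the 1 gene of 26 that passed between the memory groups with pairs, lower in CD45RBhi (-0.33 ± 0.0745, adjusted p = 0.0244). Over all genes tested with pairs 5.59% passed, and a link to Pdcd1 was not tested.

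Of 18 genes listed as other inhibitory receptors and tested against naive cells, 11 rose and 4 fell in CD45RBhi. In CD45RBlo 12 rose and 4 fell. The shares of all genes that passed were 41.5% in CD45RBhi and 42.2% in CD45RBlo. Klrc1, encoding NKG2A, averaged 582 CPM in CD45RBhi, 613 CPM in CD45RBlo and 1.11 CPM in naive libraries. Klrg1, a receptor of terminally differentiated cells, averaged 217, 313 and 0.482 CPM in the same order. Fcgr2b, an inhibitory Fc receptor best known on B cells, averaged 62.0 CPM in CD45RBhi, 63.5 CPM in CD45RBlo and 0.343 CPM in naive libraries, the reverse of the B cell markers. With pairs, 5 of 15 were lower and 1 higher in CD45RBhi than in CD45RBlo, beside 3.08% lower and 2.52% higher of all genes. Klrg1 (-0.52, adjusted p = 0.000703), Klra9 (-0.85, 0.00096) and Klra3 (-1.27, 0.0146) were lower. Cd22 and Entpd1 were lower and Pecam1 higher, and these 3 were named after their values were seen. Entpd1 encodes the ectoenzyme CD39, which is not a receptor, and is counted in this list.

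Of 20 transcription factors tied to these receptors in T cells, 10 rose and 4 fell in CD45RBhi against naive cells. In CD45RBlo 11 rose and 4 fell. The shares of all genes that passed were 41.5% in CD45RBhi and 42.2% in CD45RBlo. Tbx21, encoding T-bet, averaged 843 CPM in CD45RBhi, 867 CPM in CD45RBlo and 15.1 CPM in naive libraries. Id2, a factor of effector and memory cells, averaged 965, 892 and 103 CPM in the same order. Bach2, a repressor that restrains effector genes, averaged 29.2, 25.6 and 119 CPM. With pairs, 3 were lower and 1 higher in CD45RBhi than in CD45RBlo, beside 3.08% lower and 2.52% higher of all genes. Prdm1, encoding the repressor Blimp-1, averaged 64.5 CPM in CD45RBhi and 94.9 CPM in CD45RBlo (-0.55, adjusted p = 0.000901). Tox, a factor known for sustaining inhibitory receptors in exhausted cells, averaged 164 CPM in CD45RBhi and 217 CPM in CD45RBlo (-0.43, adjusted p = 0.0035). Tcf7, encoding TCF-1, a factor of long-lived and stem-like T cells, averaged 1360 CPM in CD45RBhi and 1060 CPM in CD45RBlo (0.36, adjusted p = 0.00198). Without pairs, the adjusted p between the memory groups was 0.176 to 0.647 over Cd86, Crtam, Ptpn11, Klrg1, Klra9, Klra3, Prdm1, Tox and Tcf7.

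The genes whose log2 CPM followed each receptor most closely over the 11 libraries were found among 8401 genes (8402 for Lag3 and Ctla4) averaging at least 10 CPM. They are a description, and all points share the split between memory and naive libraries, between which 41.5% and 42.2% of genes differed. Tigit was closest to Myo1f (Pearson r = 0.999) and Adam8 (0.998), Havcr2 to Tcrg-C2 (0.998) and Tigit (0.996), Pdcd1 to Tmem51 (0.997) and Gsap (0.996), and Lag3 to Ehd4 (0.986) and Clcn4-2 (0.985). Cd160 was closest to Ech1 (0.996) and St14 (0.995), Ctla4 to Prr5l (0.979) and Dmrta1 (0.977), and Btla to Pdha1 (0.979) and Sars2 (0.976). Cd5 and Cd96 had few close genes, 2 and 4 with r over 0.9, against 176 for Btla and 1038 for Tigit. Their closest were Prdm4 (0.925) for Cd5 and Nubp2 (0.942) for Cd96.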

How the data were processed

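The values are raw read counts per gene and library, as the authors deposited them. The tools in the submitters' processing notes are featureCounts, SAMtools and DESeq2, without versions, and GRCm38 (mm10) is the build. The sources used here do not give the aligner, the annotation or the strandedness. All 11 libraries were used. Of 15 pairs of replicates 0 were identical; the chi-square of their counts was 9.43 to 84.7 times its degrees of freedom. Limits and counts cover counting error only, since PCR reads are not independent molecules.

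The low-count filter was filterByExpr of edgeR (minimum count 10), libraries were scaled by TMM, and groups were compared in 1 fit of all libraries with the quasi-likelihood F test, two-sided (R 4.3.3, edgeR 4.0.16). All 9 receptor genes passed the filter. The fits were tested on simulated data. DESeq2 1.42.0, other scalings, no filter, the compared groups alone and leaving out single libraries were alternatives. SE is the log2 fold change divided by the square root of F. Positions and exon lengths come from GENCODE M21 on GRCm38, which need not be the annotation that was counted on, and promoters from RefSeq on GRCm38.p6. Figures were drawn with matplotlib 3.10.9.

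Replicate numbers are shared between groups. Deviations from the group means of same-numbered CD45RBhi and CD45RBlo libraries correlated at 0.191 to 0.452 across genes, and those of other numbers at most at 0.0284. The labels do not state this pairing, and a block over the 8 memory libraries was read beside the unpaired fit. Memory and naive libraries of 1 number correlated at -0.101 to 0.0565 and were not paired.

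The receptors, lists and motifs were chosen with earlier results of these data known. All 9 receptors are named; of each list, up to 3 genes per comparison by p among those that passed, genes that compete for a receptor's ligand, and the 2 genes most like each receptor.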

Additional observations from a re-analysis of the deposited data

How the results depend on the processing

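Between CD45RBhi and CD45RBlo, the number of all genes called was 17 without pairs, 144 with DESeq2, 4 with only the memory libraries, 707 with the replicate block and 6 to 15 when single libraries were left out. Of the 9 receptors, 0 were called without pairs, also without any single library; DESeq2 called 1 lower and the replicate block 3 lower and 1 higher. When 1 pair was dropped from the block, 344 (pair 1), 667 (pair 2), 167 (pair 3) and 300 (pair 4) genes passed, with 2 to 3 receptors lower and 0 higher. Against naive cells, the numbers share no pairing in the data; a replicate block called 3786 genes in CD45RBhi (5694 without) and 0 receptors lower, as Btla was at -0.49 (adjusted p = 0.0771). Leaving out single libraries gave 4669 to 5843 genes, 6 to 7 receptors higher and 0 to 1 lower in CD45RBhi, and 4806 to 6164 genes, 6 higher and 1 lower in CD45RBlo. Tigit, Havcr2, Pdcd1, Lag3, Ctla4 and Cd160 passed against naive cells under all 17 alternatives in each memory group.

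Signs turned only at values near 0. Cd5 in CD45RBhi against naive was -0.019 with library size only, a scaling that moved the median of all genes to -0.155 (2301 higher and 3724 lower). Between the memory groups, leaving out single libraries gave -0.154 to 0.022 for Cd160 and -0.043 to 0.221 for Ctla4, and the block without pair 4 gave 0.004 for Cd160. Between the memory groups the block changed the calls of Pdcd1, Lag3, Havcr2 and Btla and of none of the other 5 receptors, and the causes were not tested. Depth limits Lag3, Havcr2 and Tigit in naive libraries, where counts were 0 to 12.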
